A study of Rattus norvegicus with 18 samples.

Results

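FRT/TSHR and FRTL5 are 2 rat thyroid cell lines, and the comparison described here sets the 3 unstimulated FRT/TSHR arrays against the 3 unstimulated FRTL5 arrays, 6 of the 18 arrays of the series. The arrays were chosen by their titles alone, and every probe set except the 59 hybridisation and labelling controls was tested, 8740 of 8799. FRTL5 is labelled as a differentiated thyrocyte line and was grown for 5 days in a TSH-free medium called 5H. FRT/TSHR is labelled as de-differentiated, and its medium was Ham's F12 in Coon's modification; its name says that FRT cells carry the TSH receptor (TSHR), but the labels give neither the species or promoter of that receptor nor whether the line is 1 clone. Both lines spent the last 12 h without serum, received no TSH, and gave total RNA that was labelled as biotin cRNA from 10 µg. Cell line and medium differ together, so that their parts in any difference cannot be told apart. The other 12 arrays, at 30 min and 17 h of TSH, enter the shared estimate of the spread, the choice of the probe set that stands for a gene, and the last comparison.

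Thyroid follicular cells are polarised epithelial cells that take up iodide, couple it to thyroglobulin and release thyroid hormone under the control of TSH, which acts through its receptor, the G protein Gs and cyclic AMP. The transcription factors Pax8, Nkx2-1 and Foxe1 keep up this programme, and its loss in cultured or tumour cells is called de-differentiation. FRTL5 is known as a line that kept thyroglobulin synthesis and iodide transport but grows without apical and basal polarity, whereas FRT cells form polarised monolayers and lack those functions.

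Values are log2 expression from robust multi-array averaging (RMA), so that a difference of 1.00 is a 2-fold difference. Differences are FRT/TSHR minus FRTL5 with the standard error from limma, and a probe set was called where the Benjamini-Hochberg adjusted p over all 8740 was under 0.05. Where a gene had several probe sets, the one with the highest mean over the 18 arrays stood for it, which left 4736 genes. Other probe sets of a gene named below did not always pass, and not every such case is printed. These arrays give no detection call, so a low value may be background and a fold against it may be too small. In each line a lower value may mean less RNA per cell or fewer cells that express the gene, which cannot be told apart in RNA of whole cultures. The labels call the replicates biological, without saying how the cultures were kept apart.

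The 6 arrays had medians between 5.47 and 5.54. Arrays of the same line correlated at 0.968 to 0.993 over all probe sets and arrays of different lines at 0.899 to 0.916. The first principal component of the 6 arrays put the lines on opposite sides and took up 79.0% of the variance; along the second, with 11.1%, FRTL5 replicate 1 stood apart. On that array the 3′ beta-actin control probe set read 1.22 above the 5′ one, against -0.08 and 0.28 on the other FRTL5 arrays and -0.14 to 0.16 on the FRT/TSHR arrays.

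In all, 2226 of the 8740 probe sets (25.5%) differed between the lines, 1161 higher in FRT/TSHR (13.3%) and 1065 lower (12.2%). Of these, 999 differed at least 2-fold (563 higher, 436 lower) and 110 at least 8-fold (70 higher, 40 lower). The median difference over all probe sets was -0.04. Without FRTL5 replicate 1 there were 2068 calls, of which 1902 were shared with the full set in the same direction. By gene, 1352 of 4736 were called (28.5%), 699 higher (14.8%) and 653 lower (13.8%), and these 3 shares are the background for each gene group below. The arrays of both lines did not overlap in 37.0% of probe sets and 39.8% of genes. Among 1565 genes with several probe sets, none had calls in both directions; 508 were called by their representative, and in 337 of them another probe set was called the same way.

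**Figure D1:**
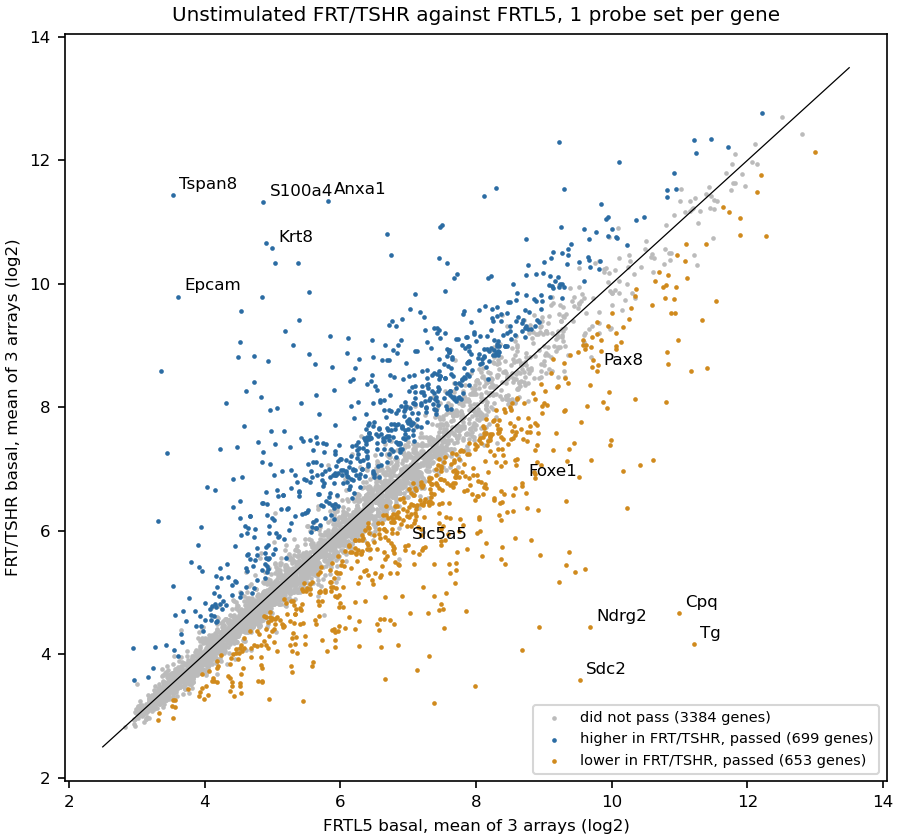
Mean log2 expression of 4736 genes in the 3 unstimulated FRTL5 arrays (horizontal axis) and the 3 unstimulated FRT/TSHR arrays (vertical axis), 1 probe set per gene, with equality drawn as a line. Blue points are the 699 genes called higher in FRT/TSHR, orange points the 653 called lower and grey points the rest; Tspan8, Epcam and S100a4 lie far above the line and Tg, Cpq and Sdc2 far below it.

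The largest differences in favour of FRT/TSHR belonged to a tetraspanin, a calcium-binding protein, an epithelial adhesion molecule, a desaturase and a keratin. Tspan8, a tetraspanin of the cell surface, read 3.41, 3.59 and 3.60 in FRTL5 and 11.21, 11.29 and 11.79 in FRT/TSHR. Its arrays stood in separate ranges, 238-fold apart in the mean (difference 7.89 ± 0.21, adjusted p = 3.1e-13). S100a4, a calcium-binding protein known from fibroblasts and motile cells, read 4.85, 4.85 and 4.90 in FRTL5 and 11.39, 11.19 and 11.41 in FRT/TSHR (difference 6.46 ± 0.21, adjusted p = 2.0e-12). Epcam, the epithelial cell adhesion molecule, read 3.64, 3.57 and 3.62 in FRTL5 and 9.75, 9.70 and 9.93 in FRT/TSHR (difference 6.19 ± 0.11, adjusted p = 1.7e-15). For both genes the 3 FRTL5 arrays lay within a narrow band near the low end of the scale and every FRT/TSHR array lay far above it.

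Scd2, a stearoyl-CoA desaturase that makes monounsaturated fatty acids, read 4.90, 5.03 and 4.78 in FRTL5 and 10.60, 10.51 and 10.86 in FRT/TSHR (difference 5.75 ± 0.18), and 5 of its 6 probe sets were called higher. Krt8, a keratin of simple epithelia, read 4.85, 5.06 and 5.06 in FRTL5 and 10.30, 10.62 and 10.83 in FRT/TSHR (difference 5.59 ± 0.18), and its partner Krt18 read 4.47, 4.35 and 4.68 in FRTL5 and 8.84, 8.61 and 8.98 in FRT/TSHR (difference 4.31 ± 0.20). Neither gene had an FRTL5 array near an FRT/TSHR array. The other 9 of the 15 largest rises ran from 5.53 for Anxa1 down to 4.12 for Fxyd4, a regulator of the sodium pump. Between them came the lectin Lgals3, the nuclear cytokine Il33, the fatty acid carrier Fabp5, the actin-capping protein Capg, the Ly6 family gene Ly6al, the small GTPase Rrad and the quinone reductase Nqo1. Il33 read 3.45, 3.05 and 3.59 in FRTL5 and 8.89, 8.03 and 8.85 in FRT/TSHR (difference 5.23 ± 0.31, adjusted p = 2.3e-09).

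Among the 15 largest falls, the thyroid genes Tg and Cpq were followed by genes of the cell surface, the mitochondrion, the cytoskeleton and metal or oxidant handling. Sdc2, the heparan sulphate proteoglycan syndecan-2, read 9.63, 9.46 and 9.49 in FRTL5 and 3.54, 3.69 and 3.51 in FRT/TSHR (difference -5.95 ± 0.20, adjusted p = 2.0e-12). Slc25a4, the ADP/ATP carrier of the inner mitochondrial membrane, read 8.80, 8.83 and 8.39 in FRTL5 and 3.89, 4.14 and 4.17 in FRT/TSHR (difference -4.60 ± 0.15). Fgfr1, a receptor for fibroblast growth factors, read 7.87, 8.21 and 7.87 in FRTL5 and 3.47, 3.40 and 3.58 in FRT/TSHR (difference -4.50 ± 0.22). Its other probe sets differed by -2.26 ± 0.22 and -0.20 ± 0.10, and the last was not called. On the representative probe sets of all 3 genes the lowest FRTL5 array was far above the highest FRT/TSHR array.

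Ndrg2 fell by 5.24, the smooth-muscle calponin Cnn1 by 4.49, the secreted superoxide dismutase Sod3 by 4.13, Bex3 by 4.06, the metallothionein Mt3 by 3.89, the small GTPase Rhob by 3.87, the adhesion molecule Icam1 by 3.71 and the aminoacylase Acy1 by 3.47. Cd48, a surface protein best known from leukocytes, read 7.71, 7.47 and 6.99 in FRTL5 and 3.31, 3.18 and 3.13 in FRT/TSHR (difference -4.18 ± 0.17). Timp3, an inhibitor of matrix metalloproteinases, had the widest spread of these genes: it read 8.21, 10.02 and 10.59 in FRTL5 and 5.42, 5.47 and 5.25 in FRT/TSHR (difference -4.23 ± 0.72, adjusted p = 0.00028). FRTL5 replicate 1 was the lowest FRTL5 array for Timp3, and without it the difference was -4.92 ± 0.72.

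**Figure D2:**
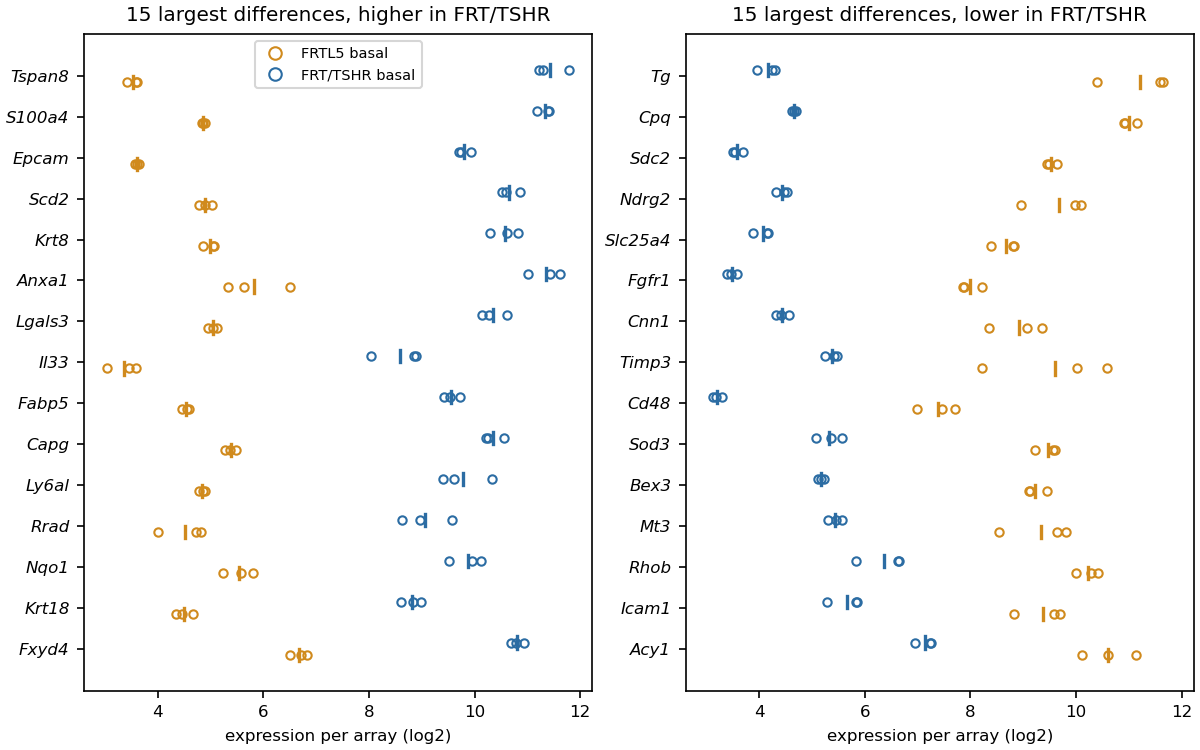
Log2 expression on each of the 6 unstimulated arrays for the 15 genes with the largest positive and the 15 with the largest negative difference, FRTL5 in orange and FRT/TSHR in blue, with a vertical bar at the mean of 3 arrays. In every gene shown the ranges of the 2 lines are separate, which the choice of these genes required, and Timp3 has the widest FRTL5 range.

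Thyroglobulin and several other thyroid genes were lower in FRT/TSHR, and none was called higher. Of 10 genes of hormone synthesis and iodide handling, 5 were called lower and none higher (limma; at an unadjusted p under 0.05 also 5 and 0), with a median of -0.46 against -0.04 over all genes. Tg, thyroglobulin, the protein on which thyroid hormone is made, read 10.40, 11.64 and 11.58 in FRTL5 and 4.24, 3.95 and 4.30 in FRT/TSHR. The FRT/TSHR arrays lay at the low end of the scale and the means were 132-fold apart (difference -7.04 ± 0.37, adjusted p = 4.7e-10). All 4 Tg probe sets were called lower, with differences of -7.04, -5.28, -5.66 and -4.01. On each of them FRTL5 replicate 1 was the lowest FRTL5 array, most of all on the fourth, where FRTL5 read 5.23, 8.80 and 9.73. Without that array the first Tg probe set differed by -7.44 ± 0.35.

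Cpq, a secreted carboxypeptidase linked to the release of hormone from thyroglobulin, read 10.92, 10.90 and 11.16 in FRTL5 and 4.70, 4.66 and 4.62 in FRT/TSHR (difference -6.33 ± 0.12, adjusted p = 1.7e-15). Slc5a5, the basolateral carrier that brings iodide into the cell, read 6.73, 7.15 and 7.0 in FRTL5 and 5.66, 5.93 and 5.69 in FRT/TSHR. Its lines did not overlap, but its difference, -1.20 ± 0.18, was far smaller than that of Tg (adjusted p = 9.6e-05). Dio1, a deiodinase that activates thyroxine, had a difference of -1.10 ± 0.28 (adjusted p = 0.0068). The thyroid hormone receptor gene Thra had -0.77 ± 0.24 (adjusted p = 0.026), and that call was lost without FRTL5 replicate 1 or 2 or FRT/TSHR replicate 2 or 3 (adjusted p = 0.058 to 0.13). Dio2, Dio3, Thrb and Ttr, the rest of the list apart from the receptor gene Tshr, had differences between -0.14 and 0.14, none called; they are named here because they complete the list.

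Of 6 transcription factors of the thyroid and foregut list, 3 were called lower (Foxe1, Foxa2 and Pax8) and none higher (limma; 4 and 0 at an unadjusted p under 0.05). Foxe1, a forkhead factor required for thyroid formation, read 8.12, 8.96 and 8.94 in FRTL5 and 6.58, 7.11 and 6.64 in FRT/TSHR (difference -1.89 ± 0.34, adjusted p = 0.00043). Pax8, a paired-box factor that acts on the Tg and Slc5a5 genes, read 9.44, 9.99 and 9.94 in FRTL5 and 8.55, 8.65 and 8.55 in FRT/TSHR (difference -1.21 ± 0.23, adjusted p = 0.00066). Its FRT/TSHR arrays were lower than every FRTL5 array but still in the upper part of the scale. Foxa2 had a difference of -1.34 ± 0.14 (adjusted p = 1.2e-06).

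Nkx2-1, the homeobox factor also called TTF-1, gave different answers by probe set. The probe set with the higher mean read 6.07, 7.86 and 7.74 in FRTL5 and 5.80, 6.03 and 6.12 in FRT/TSHR. FRTL5 replicate 1 lay beside the FRT/TSHR arrays there, and the difference of -1.24 ± 0.50 did not pass (adjusted p = 0.086). Without that array it was -1.81 ± 0.46 and passed (adjusted p = 0.0087). The other probe set read 8.26, 7.91 and 7.68 in FRTL5 and 4.04, 4.21 and 4.15 in FRT/TSHR, with no overlap and a difference of -3.82 ± 0.14 (adjusted p = 6.3e-12).

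The receptor gene Tshr had 4 probe sets, and they differed. The one with the highest mean read 6.65, 6.69 and 6.34 in FRTL5 and 6.47, 6.75 and 6.57 in FRT/TSHR, overlapping ranges with a difference of 0.04 ± 0.15 (adjusted p = 0.91). The second read 7.25, 7.86 and 8.06 in FRTL5 and 3.75, 3.89 and 3.63 in FRT/TSHR, with FRT/TSHR far below FRTL5 (difference -3.96 ± 0.32, adjusted p = 1.1e-07). The remaining ones differed by -2.15 ± 0.14 and -0.81 ± 0.22, both called lower. Which part of the receptor each probe set covers, and whether any of them matches the introduced receptor, was not analysed here, so none of them shows how much receptor FRT/TSHR made.

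**Figure D3:**
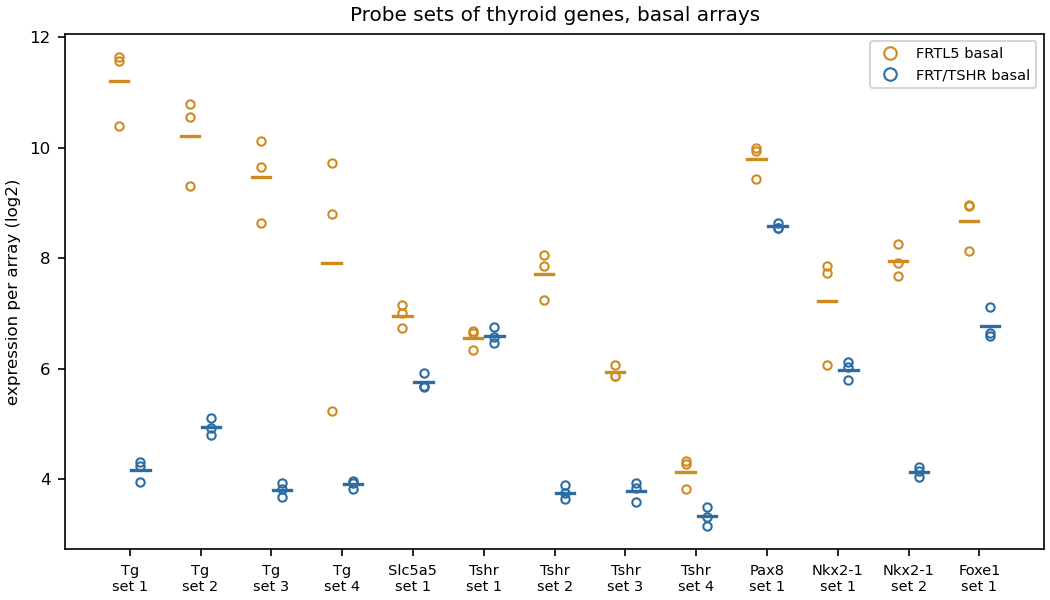
Log2 expression on each unstimulated array for every probe set of Tg, Slc5a5, Tshr, Pax8, Nkx2-1 and Foxe1, FRTL5 in orange and FRT/TSHR in blue, with a bar at the mean of 3 arrays. FRT/TSHR lies below FRTL5 in each probe set except the first of Tshr, where the lines overlap, and the first of Nkx2-1, where FRTL5 replicate 1 (6.07) lies beside the FRT/TSHR arrays.

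Many epithelial markers rose in FRT/TSHR, and some fell. Of 19 adhesion, junction and surface genes, 9 were called higher and 5 lower, with a median of 0.55. Muc1, a mucin of the apical surface, read 5.23, 5.41 and 5.51 in FRTL5 and 9.76, 9.24 and 9.24 in FRT/TSHR (difference 4.03 ± 0.20, adjusted p = 3.5e-10). Cldn3, a claudin of the tight junction, read 6.58, 6.82 and 6.82 in FRTL5 and 10.32, 10.68 and 10.38 in FRT/TSHR (difference 3.72 ± 0.13, adjusted p = 5.7e-12). Both had separate ranges. Called lower were the surface glycoprotein Cd24 (-1.16 ± 0.19), the connexin Gjb1 (-0.98 ± 0.22), the tight junction scaffold Tjp1 (-0.87 ± 0.26) and the protease inhibitor Spint2 (-0.49 ± 0.09); the call of Tjp1 was lost, and the number of lower calls was 3, without FRTL5 replicate 1, FRT/TSHR replicate 2 or FRT/TSHR replicate 3. Cdh1, E-cadherin, had no probe set under its symbol.

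Of 10 keratins, 4 were higher and 1 lower. Besides Krt8 and Krt18, Krt20 had a difference of 1.58 ± 0.19 and Krt19 of 1.10 ± 0.30, both keratins of simple epithelia. Krt10, a keratin of stratified epidermis, was the lower one and read 4.84, 4.24 and 4.23 in FRTL5 and 3.25, 3.32 and 3.40 in FRT/TSHR (difference -1.11 ± 0.16). With probe sets of low mean removed, 2 keratins were called higher.

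Mesenchymal markers moved in both directions. Of 27, 2 were called higher (S100a4 and Fn1) and 6 lower, with a median of -0.04, equal to that of all genes. Fn1, fibronectin of the matrix, read 6.72, 5.85 and 5.85 in FRTL5 and 8.20, 8.55 and 8.54 in FRT/TSHR (difference 2.29 ± 0.29, adjusted p = 1.4e-05). Other Fn1 probe sets had 1.23 ± 0.18 and 0.88 ± 0.17, both called higher, and 0.25 ± 0.16 and 0.10 ± 0.18, not called. Cnn1 and Tgfb1 (difference -1.28 ± 0.24) were called lower, as were the neural cell adhesion molecule Ncam1 (-0.67 ± 0.12) and N-cadherin, Cdh2, which read 5.97, 6.0 and 5.99 in FRTL5 and 4.69, 4.80 and 4.80 in FRT/TSHR (difference -1.22 ± 0.13, adjusted p = 2.5e-06). Vim, the intermediate filament vimentin, read 8.31, 7.78 and 7.69 in FRTL5 and 8.47, 8.66 and 8.53 in FRT/TSHR, a difference of 0.62 ± 0.31 that did not pass (adjusted p = 0.18); it passed in the fit of the 6 arrays alone (adjusted p = 0.039). The summed level of the 27 genes was 11.59 to 12.25 in FRTL5 and 12.43 to 12.77 in FRT/TSHR (log2 of the sum); without S100a4 it was 11.57 to 12.24 and 11.63 to 12.06, which overlap. With probe sets of low mean removed, 2 of the members were called lower.

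Markers of other cell types of the gland had few calls. None of 13 C cell and neuroendocrine genes was called in either direction (limma; none at an unadjusted p under 0.05), and their summed level was 8.84 to 8.97 in FRTL5 and 8.91 to 9.06 in FRT/TSHR. Ret, also a C cell marker, was not among these 13 and was counted with the tyrosine kinase genes. Its representative probe set was called lower (-0.67 ± 0.09). Its others had -0.45 ± 0.11, called lower, and 0.20 ± 0.15, not called. The endothelial list had 1 call in 8, Edn1, the gene of the peptide endothelin-1, with 1.16 ± 0.22. The leukocyte list had 2 calls in 16, the B cell receptor gene Cd79b (1.15 ± 0.22) and the lysozyme gene Lyz2 (-0.83 ± 0.15), with a summed level of 9.18 to 9.37 and 9.19 to 9.26. Neither of 2 parathyroid genes was called. The labels "differentiated" and "de-differentiated" matched the direction of Tg, Slc5a5, Pax8 and Foxe1. Other thyroid genes were not called, namely Dio2, Dio3, Thrb, Ttr and, on their representative probe sets, Tshr (0.04 ± 0.15) and Nkx2-1 (-1.24 ± 0.50).

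S100 proteins, annexins and galectins held several of the large rises. Anxa1, a lipid-binding annexin known for anti-inflammatory action, read 6.5, 5.33 and 5.63 in FRTL5 and 11.43, 11.01 and 11.61 in FRT/TSHR (difference 5.53 ± 0.32, adjusted p = 1.8e-09). Anxa2, which binds S100a10 at the membrane, had means of 10.11 ± 0.14 against 11.98 ± 0.04 (SD, n = 3 each; difference 1.87 ± 0.17). S100a10 itself read 5.72, 4.88 and 4.95 in FRTL5 and 9.70, 9.10 and 8.91 in FRT/TSHR (difference 4.05 ± 0.41, adjusted p = 1.2e-06). All 3 had separate ranges. Lgals3, galectin-3, which is used as a marker of thyroid carcinoma, read 5.06, 4.96 and 5.12 in FRTL5 and 10.27, 10.13 and 10.61 in FRT/TSHR (difference 5.30 ± 0.26, adjusted p = 1.9e-10), and Lgals9 differed by 1.31 ± 0.15. In all, 7 of 13 annexins and galectins were called higher and 2 lower (Anxa6, -1.20 ± 0.16, and Lgals8, -0.40 ± 0.12, the last lost without FRTL5 replicate 3 or FRT/TSHR replicate 1 or 3). Of 7 S100 genes, 2 were higher and 1 lower: S100a1 read 8.32, 8.56 and 8.74 in FRTL5 and 6.47, 6.63 and 6.62 in FRT/TSHR, and all 4 of its probe sets were called lower.

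Matrix proteases and their inhibitors were called in both directions, 5 of 32 higher and 6 lower, near the shares over all genes. Plat, tissue plasminogen activator, read 4.33, 4.30 and 4.34 in FRTL5 and 7.90, 7.97 and 8.34 in FRT/TSHR (difference 3.75 ± 0.33, adjusted p = 2.8e-07), and Plaur, the receptor of urokinase, read 6.24, 6.35 and 6.58 in FRTL5 and 8.38, 8.40 and 8.38 in FRT/TSHR (difference 2.00 ± 0.16). The serpin Serpinb5, known as maspin, had 2.68 ± 0.13 and the inhibitor Timp1 1.47 ± 0.14. On the lower side stood Timp3, the membrane protease Mmp14, which read 8.79, 8.99 and 8.46 in FRTL5 and 5.96, 6.62 and 6.55 in FRT/TSHR (difference -2.37 ± 0.20), Serpinb9 (-2.06 ± 0.17) and Mmp11 (-1.14 ± 0.12). Timp1 and Timp3, both inhibitors of metalloproteinases, thus lay on opposite sides.

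Laminins and integrins of the epithelial basement membrane also lay on both sides. Lama3, the laminin chain of hemidesmosomes, read 4.30, 4.05 and 4.11 in FRTL5 and 5.96, 7.05 and 6.99 in FRT/TSHR (difference 2.51 ± 0.29, adjusted p = 5.9e-06), and Itgb4, the integrin chain that binds it, read 6.70, 6.64 and 6.71 in FRTL5 and 8.71, 9.24 and 8.34 in FRT/TSHR (difference 2.08 ± 0.19, adjusted p = 4.1e-07). Lamb2 fell, with 9.19, 9.59 and 9.33 in FRTL5 and 6.95, 7.56 and 7.48 in FRT/TSHR (difference -2.04 ± 0.21). Among 11 integrins 3 were higher, Itgb4, Itgb1 (1.25 ± 0.25) and Itga1 (1.12 ± 0.21), and 2 lower, Itga7 (-0.89 ± 0.12) and Itgae (-0.61 ± 0.13). Of 21 collagens and laminins 2 were higher and 3 lower.

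Of 60 genes of actin, myosin, tropomyosin and tubulin filaments, 16 were called higher and 3 lower, beside 14.8% and 13.8% over all genes. Tuba4a, an alpha-tubulin, read 6.91, 6.96 and 6.63 in FRTL5 and 9.18, 8.58 and 8.86 in FRT/TSHR (difference 2.04 ± 0.24). Myo5b, a motor of apical recycling vesicles, had 1.23 ± 0.15, the myosin light chain Myl12a 1.13 ± 0.16 and the tropomyosin Tpm3 1.08 ± 0.19. The lower ones were Cnn1, the myosin kinase Mylk2 (-0.47 ± 0.12) and Tpm1 (-0.58 ± 0.21, adjusted p = 0.049, lost without any 1 array except FRTL5 replicate 2).

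Cholesterol synthesis was the list with the largest share of called members among those with 10 or more genes. The pathway makes isoprenoids through mevalonate and farnesyl diphosphate and then turns squalene into cholesterol. Its genes are known targets of the sterol-regulated factor SREBP-2, which binds sterol elements and acts with NF-Y, the factor that binds CCAAT boxes. Of 16 genes, 13 were called higher and none lower (limma; at an unadjusted p under 0.05 also 13 and 0), with a median of 1.86. Idi1, which isomerises isopentenyl diphosphate, read 5.64, 5.22 and 5.03 in FRTL5 and 9.51, 8.69 and 8.83 in FRT/TSHR (difference 3.71 ± 0.28, adjusted p = 4.4e-08). Fdps, farnesyl diphosphate synthase, read 8.31, 8.18 and 7.87 in FRTL5 and 11.52, 11.47 and 11.28 in FRT/TSHR (difference 3.30 ± 0.19, adjusted p = 1.5e-09), and all 3 of its probe sets were called higher. Cyp51, which removes a methyl group from lanosterol, read 7.81, 7.28 and 7.33 in FRTL5 and 10.59, 10.89 and 11.27 in FRT/TSHR (difference 3.44 ± 0.26), with 5 of 5 probe sets called.

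Fdft1, squalene synthase, read 7.14, 7.14 and 7.03 in FRTL5 and 9.94, 9.77 and 9.78 in FRT/TSHR (difference 2.73 ± 0.16), with all 4 probe sets called. In each of these enzymes the highest FRTL5 array lay more than 1 log2 unit below the lowest FRT/TSHR array. The members not called were Sqle, Lss and Srebf1, named to complete the list, with -0.38 ± 0.19, 0.49 ± 0.23 and -0.08 ± 0.24. Sqle, squalene epoxidase, read 11.12, 10.87 and 10.63 in FRTL5 and 10.41, 10.39 and 10.69 in FRT/TSHR and its lines overlapped.

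The start regions of these genes are shown because the members moved together and NF-Y and SREBP sites are known there. RefSeq windows of build GRCr8, from 250 bases before to 50 bases after the annotated start, were searched on both strands for CCAAT, for the sterol element core TCACNCCAC, for CTCAAG, the core bound by NKX2-1, and for the antioxidant element core TGACNNNGC. Of 14 cholesterol genes with a window, 11 held CCAAT (78.6%), against 37.5% of all 33469 windows. For each gene list 1 window per gene was counted, whereas the share over all windows counts every window. The 11 included Lss and Srebf1, which were not called, while the windows of Cyp51 and Dhcr7, both called higher, held no CCAAT. TCACNCCAC was found in none of the 14 and in 1.12% of all windows, and CTCAAG in 5 (35.7%), against 15.8% of all. In the list of thyroid hormone synthesis and iodide handling CTCAAG was in 1 of 7 windows (14.3%), near the share over all windows. A match is a description of letters in the window and names no bound site. The windows of Idi1, Fdps and Mvd each hold 2 CCAAT matches, in capitals (ATTGG is CCAAT on the other strand); they were chosen for these matches after the values were seen. They lie at chr17:66547475-66547774, chr2:176804767-176805066 and chr19:67414925-67415224, all on the minus strand, and are written 5′ to 3′ in the direction of the gene:
Idi1: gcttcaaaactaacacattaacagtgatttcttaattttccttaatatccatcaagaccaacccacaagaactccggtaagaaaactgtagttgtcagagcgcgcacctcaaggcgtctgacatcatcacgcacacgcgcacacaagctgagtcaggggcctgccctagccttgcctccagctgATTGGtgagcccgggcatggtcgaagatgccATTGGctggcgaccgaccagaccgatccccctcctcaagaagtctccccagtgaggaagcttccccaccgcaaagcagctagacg
Fdps: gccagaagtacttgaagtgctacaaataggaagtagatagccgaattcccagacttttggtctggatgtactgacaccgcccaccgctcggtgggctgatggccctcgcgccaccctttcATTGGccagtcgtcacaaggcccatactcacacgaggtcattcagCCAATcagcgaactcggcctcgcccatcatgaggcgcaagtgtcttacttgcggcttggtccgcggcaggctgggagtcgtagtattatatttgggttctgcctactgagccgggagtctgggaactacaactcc
Mvd: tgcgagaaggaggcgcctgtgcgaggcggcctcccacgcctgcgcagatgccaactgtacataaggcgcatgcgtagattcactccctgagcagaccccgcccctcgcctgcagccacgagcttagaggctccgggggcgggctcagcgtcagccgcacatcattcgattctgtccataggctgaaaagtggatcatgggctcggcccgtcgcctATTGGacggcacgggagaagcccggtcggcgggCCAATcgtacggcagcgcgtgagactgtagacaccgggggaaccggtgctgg
The matches begin at -66 and -35 from the start in Idi1, at -130 and -85 in Fdps and at -35 and -2 in Mvd, the gene of mevalonate diphosphate decarboxylase, which read 6.30, 6.56 and 6.48 in FRTL5 and 8.42, 8.55 and 8.33 in FRT/TSHR (difference 1.98 ± 0.26).

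Fatty acid synthesis and its NADPH supply rose as well, with 8 of 14 called higher and none lower (limma; 8 and 0 at an unadjusted p under 0.05) and a median of 0.65. After Scd2 came the malic enzyme Me1, which read 6.22, 5.82 and 5.69 in FRTL5 and 8.98, 7.58 and 8.27 in FRT/TSHR (difference 2.37 ± 0.29), the acyl-CoA ligase Acsl5 (1.90 ± 0.28) and the cytosolic isocitrate dehydrogenase Idh1 (1.77 ± 0.19, adjusted p = 2.3e-06). Fatty acid oxidation had more lower than higher calls: 7 of 21 were lower and 1 higher, Acads (0.65 ± 0.23, lost without FRTL5 replicate 1 or 3 or FRT/TSHR replicate 2 or 3). Ech1, an enoyl-CoA hydratase for unsaturated chains, read 8.28, 8.59 and 8.21 in FRTL5 and 6.56, 6.31 and 6.48 in FRT/TSHR (difference -1.91 ± 0.19, adjusted p = 1.1e-06). Decr1 and Eci1, which also serve unsaturated chains, had -1.90 ± 0.24 and -1.73 ± 0.18, and the peroxisomal Hsd17b4 -1.04 ± 0.15. Ech1, Decr1, Eci1 and Hsd17b4 had no overlap between the lines. Another Eci1 probe set had -2.90 ± 0.20, called lower, while the remaining ones had -0.15 ± 0.13 and -0.20 ± 0.20, not called.

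Glutathione enzymes made up another group with many rises. Glutathione transferases join glutathione to reactive compounds, peroxidases use it against peroxides, and several of these genes are known targets of NRF2 at antioxidant elements. Of 28 genes 15 were called higher and 3 lower, with a median of 0.79. Gstm5 read 4.82, 4.54 and 4.84 in FRTL5 and 8.61, 8.32 and 8.30 in FRT/TSHR (difference 3.68 ± 0.18, adjusted p = 1.9e-10), and Gstp1 read 8.93, 9.37 and 9.37 in FRTL5 and 12.29, 12.14 and 12.43 in FRT/TSHR (difference 3.07 ± 0.23, adjusted p = 3.2e-08). The peroxidase Gpx2 read 7.81, 7.68 and 7.24 in FRTL5 and 10.16, 10.35 and 10.49 in FRT/TSHR (difference 2.75 ± 0.18). Mgst2, a membrane-bound transferase, differed by 2.62 ± 0.14.

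Probe sets of related transferases can share sequence, so the split between close family members is uncertain. The lower ones were Gsta4, which read 8.31, 8.52 and 8.43 in FRTL5 and 5.37, 5.62 and 5.41 in FRT/TSHR (difference -2.95 ± 0.15, adjusted p = 3.9e-10), Mgst1 (-1.92 ± 0.15) and Gstm1 (-0.72 ± 0.16, lost with the mean of its probe sets). Gsta4 acts on products of lipid peroxidation, and its lines were as clearly apart as those of Gstp1, in the other direction.

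Of 23 genes for peroxide, superoxide and redox enzymes, 7 were higher and 4 lower. Nqo1, a quinone reductase and a textbook NRF2 target, read 5.80, 5.58 and 5.25 in FRTL5 and 9.96, 9.52 and 10.13 in FRT/TSHR (difference 4.33 ± 0.37, adjusted p = 2.0e-07). Hmox1, which breaks down haem, read 7.54, 7.10 and 7.07 in FRTL5 and 9.03, 9.61 and 9.78 in FRT/TSHR (difference 2.23 ± 0.23, adjusted p = 1.6e-06), and the aldehyde reductase Akr7a3 had 1.77 ± 0.20. The cytosolic superoxide dismutase Sod1 differed by 1.11 ± 0.18, whereas the secreted Sod3 read 9.57, 9.60 and 9.22 in FRTL5 and 5.35, 5.08 and 5.56 in FRT/TSHR (difference -4.13 ± 0.19). Other Sod1 probe sets had 0.42 ± 0.18 and 0.12 ± 0.15, neither called. Mt3 and the selenoprotein Selenow (-1.46 ± 0.29) were lower too.

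The antioxidant core TGACNNNGC was found in the start windows of 7 of 23 glutathione genes (30.4%) and of 3 of 17 redox genes (17.6%), against 12.1% of all windows. It was also in 4 of 14 cholesterol genes (28.6%), Idi1 among them, so its share does not set the glutathione list apart. CCAAT was found in 12 of the 23 glutathione windows and TCACNCCAC in none. The windows of Gstp1, Gpx2 and Gclm are shown with the match in capitals, on the plus strand of the gene in Gstp1 and on the other in Gpx2 and Gclm, because each gene rose and held 1 match; this choice was made after the values were seen. They lie at chr1:210769656-210769955 (minus strand), chr6:101229984-101230283 (minus strand) and chr2:213031885-213032184 (plus strand):
Gstp1: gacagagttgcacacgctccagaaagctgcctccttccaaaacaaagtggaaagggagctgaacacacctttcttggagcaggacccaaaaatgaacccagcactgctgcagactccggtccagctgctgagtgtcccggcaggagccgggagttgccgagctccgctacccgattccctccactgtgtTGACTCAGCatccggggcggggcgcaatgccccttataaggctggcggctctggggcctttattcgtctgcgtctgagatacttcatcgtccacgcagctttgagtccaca
Gpx2: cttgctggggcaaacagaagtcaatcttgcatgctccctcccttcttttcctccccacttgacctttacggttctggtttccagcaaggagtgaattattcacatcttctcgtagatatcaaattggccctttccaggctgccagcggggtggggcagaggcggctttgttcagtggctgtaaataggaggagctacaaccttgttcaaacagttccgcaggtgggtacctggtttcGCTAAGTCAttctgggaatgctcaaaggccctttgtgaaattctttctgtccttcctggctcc
Gclm: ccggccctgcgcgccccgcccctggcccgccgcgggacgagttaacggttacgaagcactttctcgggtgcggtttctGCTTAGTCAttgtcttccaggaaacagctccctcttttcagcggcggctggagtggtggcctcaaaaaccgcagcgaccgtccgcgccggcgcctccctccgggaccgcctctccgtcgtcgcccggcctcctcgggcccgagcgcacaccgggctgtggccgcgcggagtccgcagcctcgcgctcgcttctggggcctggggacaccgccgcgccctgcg
The matches begin at -61, -13 and -172 from the start. The match in Gstp1 also holds TGACTCA, the site of AP-1. Gclm, the regulatory subunit of the first enzyme of glutathione synthesis, read 7.05, 7.10 and 7.16 in FRTL5 and 8.40, 8.26 and 8.37 in FRT/TSHR (difference 1.24 ± 0.12, adjusted p = 7.5e-07). The window of Nqo1 held no match to TGACNNNGC, which says only that these letters are not in that window.

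Energy metabolism was less uniform. Of 24 genes of glycolysis and of glucose and lactate transport, 6 were higher and 4 lower. The lactate carrier Slc16a1 read 6.36, 6.10 and 6.20 in FRTL5 and 8.67, 8.65 and 8.58 in FRT/TSHR (difference 2.42 ± 0.18, adjusted p = 2.9e-08), and the glucose carrier Slc2a1 read 6.99, 7.46 and 7.40 in FRTL5 and 8.95, 9.05 and 9.20 in FRT/TSHR (difference 1.78 ± 0.21, adjusted p = 5.7e-06). Pkm, pyruvate kinase, had 1.12 ± 0.12 and Pgam1 0.89 ± 0.10. Pdk2, a kinase that shuts down pyruvate dehydrogenase, read 9.70, 9.71 and 9.68 in FRTL5 and 7.18, 6.94 and 7.34 in FRT/TSHR (difference -2.54 ± 0.19, adjusted p = 4.1e-08), while Hk2 and Pfkm had -0.63 ± 0.16 and -0.70 ± 0.16, both lost with the mean of their probe sets.

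Of 51 subunits of the respiratory chain and ATP synthase, 11 were higher and 4 lower, the former 7 after a second quantile normalisation and 6 without FRT/TSHR replicate 1, the latter 2 without FRT/TSHR replicate 2 or 3. Ndufa4 read 9.41, 9.44 and 8.97 in FRTL5 and 10.48, 10.29 and 10.71 in FRT/TSHR (difference 1.22 ± 0.13), Ndufa5 had 1.09 ± 0.16 and Cox6a1 0.71 ± 0.14. Sdha, the flavoprotein of succinate dehydrogenase, was lower and read 8.54, 8.32 and 7.68 in FRTL5 and 7.10, 6.79 and 6.98 in FRT/TSHR (difference -1.22 ± 0.17, adjusted p = 4.3e-05).

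Several lysosomal enzymes were lower in FRT/TSHR. Thyrocytes use cathepsins to release hormone from thyroglobulin, and of 26 genes of this list 10 were called lower and 2 higher. Ctsb, cathepsin B, read 10.95, 10.94 and 10.57 in FRTL5 and 8.88, 9.05 and 8.77 in FRT/TSHR (difference -1.92 ± 0.18, adjusted p = 4.1e-07). Ctsc, cathepsin C, read 7.89, 8.18 and 8.36 in FRTL5 and 5.5, 5.91 and 5.99 in FRT/TSHR (difference -2.34 ± 0.20, adjusted p = 1.4e-07). The sphingolipid activator Psap had -1.51 ± 0.15, with all 3 probe sets lower, and the thioesterase Ppt1 -1.64 ± 0.16. The higher ones were the proton pump subunit Atp6v1f (1.19 ± 0.17) and cathepsin D, Ctsd, whose difference of 0.68 ± 0.22 (adjusted p = 0.035) was lost without FRTL5 replicate 1 or any 1 FRT/TSHR array. The median over the list lay within 0.01 of 0.

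Genes of antigen presentation were called in 6 of 23, every one lower (limma; 8 lower and 0 higher at an unadjusted p under 0.05). B2m, the light chain of class I molecules, read 10.76, 11.06 and 11.13 in FRTL5 and 8.94, 9.03 and 9.29 in FRT/TSHR (difference -1.90 ± 0.23, adjusted p = 8.0e-06). The class I genes RT1-CE16, RT1-CE12 and RT1-A, whose sequences are nearly alike so that their probe sets may share RNA, had -1.10 ± 0.11, -1.03 ± 0.11 and -1.01 ± 0.12. Both subunits of the proteasome activator that serves this pathway were lower, Psme1 with -0.99 ± 0.13 and Psme2 with -0.46 ± 0.12.

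Interferon response genes were split, 3 higher and 4 lower of 12. The transcription factors fell: Irf8 read 7.03, 7.70 and 6.93 in FRTL5 and 5.08, 5.17 and 5.00 in FRT/TSHR (difference -2.13 ± 0.19), Irf7 had -1.75 ± 0.12, Irf1 -1.51 ± 0.28 and Stat2 -0.99 ± 0.20. Cxcl10, a chemokine that interferon induces, rose and read 5.20, 4.88 and 5.12 in FRTL5 and 9.43, 7.22 and 7.33 in FRT/TSHR (difference 2.92 ± 0.45, adjusted p = 0.00012), with FRT/TSHR replicate 1 the highest array. Gbp2, a guanylate-binding protein, had 1.49 ± 0.32.

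Genes of DNA replication and mitosis were higher in FRT/TSHR. Of 15 replication genes 9 were higher and 1 lower, with a median of 0.99, and of 11 mitosis genes 7 were higher and none lower (limma; 8 and 0 at an unadjusted p under 0.05), with a median of 0.71. Mcm5, a subunit of the replicative helicase, read 5.52, 5.58 and 5.55 in FRTL5 and 7.61, 7.32 and 7.51 in FRT/TSHR (difference 1.93 ± 0.38, adjusted p = 0.0010). Pcna, the sliding clamp, read 9.10, 8.21 and 7.36 in FRTL5 and 10.29, 9.84 and 10.26 in FRT/TSHR (difference 1.90 ± 0.41, adjusted p = 0.0020); its FRTL5 arrays were spread widely but stayed below every FRT/TSHR array. Cdk1, the mitotic kinase, read 5.81, 5.45 and 5.66 in FRTL5 and 8.0, 7.14 and 7.44 in FRT/TSHR (difference 1.89 ± 0.26, adjusted p = 2.9e-05).

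Rpa3, a part of the single-strand binding complex, had 2.98 ± 0.39, the primase subunit Prim1 1.18 ± 0.19, Hmmr 1.6 ± 0.23, the centriole kinase Plk4 1.47 ± 0.37 and cyclin B1, Ccnb1, 1.33 ± 0.28. FRT/TSHR replicate 1 was the highest array for Cdk1, Hmmr, Plk4 and Ccnb1, and without it 4 of the mitosis genes were called. Rfc1, the large clamp-loader subunit, was the lower replication gene (-1.02 ± 0.14).

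Of 15 G1 cyclins, their kinases and inhibitors, 7 were higher and 1 lower. Ccnd3, cyclin D3, read 7.98, 8.07 and 7.45 in FRTL5 and 8.97, 8.97 and 8.95 in FRT/TSHR (difference 1.13 ± 0.16, adjusted p = 5.5e-05); Ccng1, a p53 target, had 1.27 ± 0.28, and Cdk5 1.05 ± 0.25. The inhibitor p27, Cdkn1b, was the lower one and read 5.94, 5.94 and 6.22 in FRTL5 and 4.80, 5.25 and 5.21 in FRT/TSHR (difference -0.95 ± 0.21, adjusted p = 0.0030).

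Among 32 immediate early genes and AP-1 factors, 8 were higher and 5 lower. Myc, a factor that drives growth, read 4.74, 5.10 and 5.11 in FRTL5 and 7.19, 7.86 and 7.82 in FRT/TSHR (difference 2.64 ± 0.24, adjusted p = 4.3e-07). Fosl1, the AP-1 subunit FRA-1, read 4.71, 4.54 and 4.20 in FRTL5 and 7.73, 7.22 and 7.12 in FRT/TSHR (difference 2.87 ± 0.42, adjusted p = 7.2e-05). Ier3 had 2.62 ± 0.24 and the Krüppel factor Klf4 1.25 ± 0.17. Id3, an inhibitor of helix-loop-helix factors, went the other way and read 9.41, 9.83 and 9.31 in FRTL5 and 7.23, 6.94 and 6.44 in FRT/TSHR (difference -2.65 ± 0.23, adjusted p = 1.9e-07); Klf10 and Btg1 had -0.66 ± 0.13 and -0.59 ± 0.13. Other Klf10 probe sets had -0.12 ± 0.11 and -0.10 ± 0.15, neither called. The number of lower calls in the list was 3 without FRTL5 replicate 1 or without FRT/TSHR replicate 3.

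Receptors and ligands of tyrosine kinase pathways were called in both directions. Of 54 genes 7 were higher and 10 lower. Lower, besides Fgfr1, were the ligand Fgf1, which read 6.71, 7.04 and 7.48 in FRTL5 and 5.72, 5.56 and 5.70 in FRT/TSHR (difference -1.42 ± 0.18), Fgf18 (-0.81 ± 0.14) and the receptor Ret (-0.67 ± 0.09). Higher were the EGF receptor ligands Hbegf, which read 5.42, 5.13 and 4.93 in FRTL5 and 6.76, 6.47 and 6.52 in FRT/TSHR (difference 1.42 ± 0.25, adjusted p = 0.00032), and Areg (1.16 ± 0.16), the receptor Erbb3 (0.84 ± 0.16) and Nrg1 (0.56 ± 0.14), with 4 of 7 Nrg1 probe sets called; the call of Nrg1 was lost in the fit of the 6 arrays alone (adjusted p = 0.051). In the insulin and IGF list of 17 genes, Igf1r, through which IGF-1 acts on thyrocytes, was lower (-1.21 ± 0.24) and Igf2r higher (0.66 ± 0.14). The other Igf1r probe set had -0.22 ± 0.24 and was not called. In this list the number of lower calls ran from 1 to 4 over the alternatives.

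In the list of TGF-beta, BMP and Wnt genes 9 of 34 were lower and 3 higher. Bmp7 read 8.85, 8.99 and 8.85 in FRTL5 and 7.19, 6.99 and 7.16 in FRT/TSHR (difference -1.78 ± 0.15, adjusted p = 1.3e-07), and Bmp4 read 5.24, 6.15 and 6.04 in FRTL5 and 3.98, 4.06 and 4.10 in FRT/TSHR (difference -1.76 ± 0.23). Tgfb1, Tgfb3 (-0.91 ± 0.14) and the Wnt receptor Fzd1 (-1.46 ± 0.15) were lower, and Bmp3 was higher (0.99 ± 0.20). With probe sets of low mean removed, 3 were called lower.

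Components of cyclic AMP and G-protein signalling, through which TSH acts, were called in 19 of 71, 14 lower and 5 higher. Over all genes 28.5% were called, 13.8% lower and 14.8% higher, so the total was near the background. The median was -0.13. With probe sets of low mean removed, 8 members were called lower. Gnas, the alpha subunit of Gs, had means of 12.99 ± 0.02 against 12.13 ± 0.14 in FRTL5 and FRT/TSHR (SD, n = 3 each; difference -0.86 ± 0.13, adjusted p = 8.1e-05 in limma), with all 4 probe sets lower. Prkar1a, a regulatory subunit of protein kinase A, had -0.57 ± 0.11 and the phosphodiesterase Pde3b -0.57 ± 0.10. Gna15, a G-protein subunit that couples to phospholipase C, was higher (1.19 ± 0.15). The counts depended on the setting: leaving out single arrays gave 1 to 2 higher calls without FRTL5 replicate 3 or any FRT/TSHR array, and 9 lower calls without FRT/TSHR replicate 1.

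Channels, pumps and carriers differed member by member. Of 54 potassium channel genes 3 were higher and 4 lower, the latter 1 without FRTL5 replicate 3 or FRT/TSHR replicate 1. Kcnk1, a 2-pore potassium channel, read 6.19, 6.13 and 5.99 in FRTL5 and 8.92, 8.70 and 9.02 in FRT/TSHR (difference 2.78 ± 0.12, adjusted p = 5.0e-11), and Kcnq1 had 1.41 ± 0.17. Kcnj15, an inward rectifier, read 7.60, 7.82 and 7.20 in FRTL5 and 5.83, 5.97 and 5.73 in FRT/TSHR (difference -1.69 ± 0.16, adjusted p = 6.3e-07). Of 91 other channels, pumps and aquaporins 6 were higher and 7 lower, with the sodium pump regulators Fxyd4, which read 6.71, 6.51 and 6.83 in FRTL5 and 10.94, 10.69 and 10.79 in FRT/TSHR, and Fxyd2 (1.83 ± 0.16) at the top and the Golgi calcium pump Atp2c1 (-1.27 ± 0.19) and the sodium channel subunit Scnn1g (-0.58 ± 0.10) among the lower. The aquaporin Aqp9 had 1.21 ± 0.14.

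Of 120 solute carriers 16 were higher and 19 lower, close to the background. Slc7a5, a carrier of large neutral amino acids, read 6.83, 6.80 and 6.92 in FRTL5 and 8.61, 9.18 and 9.22 in FRT/TSHR (difference 2.15 ± 0.21, adjusted p = 9.7e-07), and Slc22a18 had 1.97 ± 0.18. The fatty acid carrier Slc27a1 read 8.23, 9.12 and 8.86 in FRTL5 and 6.85, 6.39 and 6.57 in FRT/TSHR (difference -2.13 ± 0.24), the creatine carrier Slc6a8 had -1.48 ± 0.17 and the potassium chloride cotransporter Slc12a7 -1.30 ± 0.13. Vesicle trafficking genes gave 12 higher and 20 lower of 106. Lrpap1, the chaperone of LRP receptors such as megalin, was lower on all 4 probe sets and read 9.40, 9.35 and 9.26 in FRTL5 and 7.19, 7.20 and 7.0 in FRT/TSHR (difference -2.20 ± 0.21, adjusted p = 7.7e-07); the GTPases Rab13 and Rab12 had -1.02 ± 0.12 and -0.93 ± 0.12. The GTPase Arf1 and the adaptor subunit Ap1s1 were higher (1.38 ± 0.16 and 1.25 ± 0.12).

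Of 16 heat shock genes 7 were higher and 1 lower. Cryab, alpha-B crystallin, had means of 7.51 ± 0.68 against 10.96 ± 0.08 in FRTL5 and FRT/TSHR (SD, n = 3 each; difference 3.45 ± 0.31, adjusted p = 3.0e-07 in limma), and Hspb1, the small heat shock protein HSP27, read 9.50, 9.56 and 8.85 in FRTL5 and 11.57, 11.52 and 11.49 in FRT/TSHR (difference 2.22 ± 0.19, adjusted p = 2.1e-07). Hspb6 was lower (-1.26 ± 0.26). In the endoplasmic reticulum list, Hspa5, the chaperone BiP, had 1.40 ± 0.34 and the stress factor Ddit3 1.73 ± 0.29, while Pdia6 had -0.72 ± 0.12, with 2 higher and 3 lower of 13 in all. Those 3 lower calls came down to 1 in the fit of the 6 arrays alone, without FRTL5 replicate 2 or without FRT/TSHR replicate 3.

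Proteasome subunits were called in both directions, with small differences. Of 27 proteasome genes 8 were higher, the largest Psmc3 with 1.04 ± 0.29 (lost without FRTL5 replicate 1 or FRT/TSHR replicate 2), Psmd13 with 0.86 ± 0.23 and Psmd2 with 0.82 ± 0.20, and 3 lower. After a second quantile normalisation there were 3 higher and 6 lower, so that the balance turned. The count of 8 became 3 without FRT/TSHR replicate 1, 4 without FRTL5 replicate 3 or FRT/TSHR replicate 3, and 5 without FRTL5 replicate 1 or 2. Of 26 translation factors 9 were higher and 2 lower, with 5 higher without FRTL5 replicate 3 or FRT/TSHR replicate 1. Eif2d read 6.28, 6.43 and 6.60 in FRTL5 and 7.70, 7.55 and 7.33 in FRT/TSHR (difference 1.09 ± 0.12), and Eef2k, the kinase that slows elongation, read 7.40, 7.36 and 6.97 in FRTL5 and 5.57, 5.83 and 5.79 in FRT/TSHR (difference -1.52 ± 0.14, adjusted p = 5.8e-07). Of 40 ribosomal proteins 4 were higher and 2 lower. The lower calls numbered 4 without FRTL5 replicate 1 and 6 after a second quantile normalisation, and without the arrays numbered 1 in both lines 1 was higher and 6 lower, which turned the balance. Rpl19l4, a ribosomal gene whose probe set may share RNA with its relatives, had the largest difference, -2.58 ± 0.33 (adjusted p = 1.6e-05).

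Among 75 homeobox, forkhead, Sox, Gata and other lineage factors, 8 were higher and 10 lower. Foxq1, a forkhead factor of epithelia, read 5.90, 5.38 and 5.34 in FRTL5 and 8.91, 8.71 and 8.95 in FRT/TSHR (difference 3.31 ± 0.13, adjusted p = 1.5e-11). Foxk2 had 1.68 ± 0.25 and Cebpb, a factor of the acute phase, 1.22 ± 0.31. On the lower side were Klf9, a factor that thyroid hormone induces, which read 8.49, 8.29 and 7.51 in FRTL5 and 5.5, 5.51 and 5.78 in FRT/TSHR (difference -2.50 ± 0.24, adjusted p = 7.6e-07), and Lhx2 (-1.16 ± 0.18). Without FRTL5 replicate 1 there were 5 higher and 16 lower, and without FRT/TSHR replicate 2 there were 5 higher. Of 34 nuclear receptors 2 were higher and 6 lower; Pparg, a receptor that drives lipid storage genes, read 4.89, 4.42 and 4.27 in FRTL5 and 5.98, 6.24 and 6.41 in FRT/TSHR (difference 1.68 ± 0.26, adjusted p = 0.00013), and the oxysterol receptor Nr1h2 had -1.07 ± 0.22. The 6 lower calls became 3 without FRTL5 replicate 1, without FRTL5 replicate 3, without FRT/TSHR replicate 1 or after a second quantile normalisation, and 2 without FRT/TSHR replicate 3 or with probe sets of low mean removed.

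Dbp, a clock-driven transcription factor, was lower and read 8.07, 8.13 and 7.91 in FRTL5 and 6.62, 6.69 and 6.41 in FRT/TSHR (difference -1.46 ± 0.12, adjusted p = 1.1e-07), and Per2 had -0.86 ± 0.15; in all, 3 of 10 clock genes were lower and 1 higher. Cytochrome P450 genes were called in 4 of 48, with Cyp2f4 at 8.11, 9.94 and 8.77 in FRTL5 and 5.65, 5.68 and 5.49 in FRT/TSHR (difference -3.33 ± 0.45) and Cyp3a9 at 1.97 ± 0.25. Of 36 complement, coagulation and acute phase genes 6 were lower and 1 higher. The higher one was Lcn2, lipocalin 2, a siderophore-binding protein, which read 5.09, 4.92 and 4.78 in FRTL5 and 7.60, 9.47 and 9.17 in FRT/TSHR (difference 3.82 ± 0.36, adjusted p = 6.4e-07). F3, tissue factor, read 6.78, 7.70 and 7.66 in FRTL5 and 4.94, 4.81 and 5.06 in FRT/TSHR (difference -2.45 ± 0.37), and the complement protease C1r had -1.70 ± 0.21. Of 64 cytokines, chemokines and receptors 6 were higher, led by Il33 and Cxcl10, and 4 lower, among them the receptor chains Il2rb (-1.26 ± 0.21) and Il6st (-1.12 ± 0.17).

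**Figure D4:**
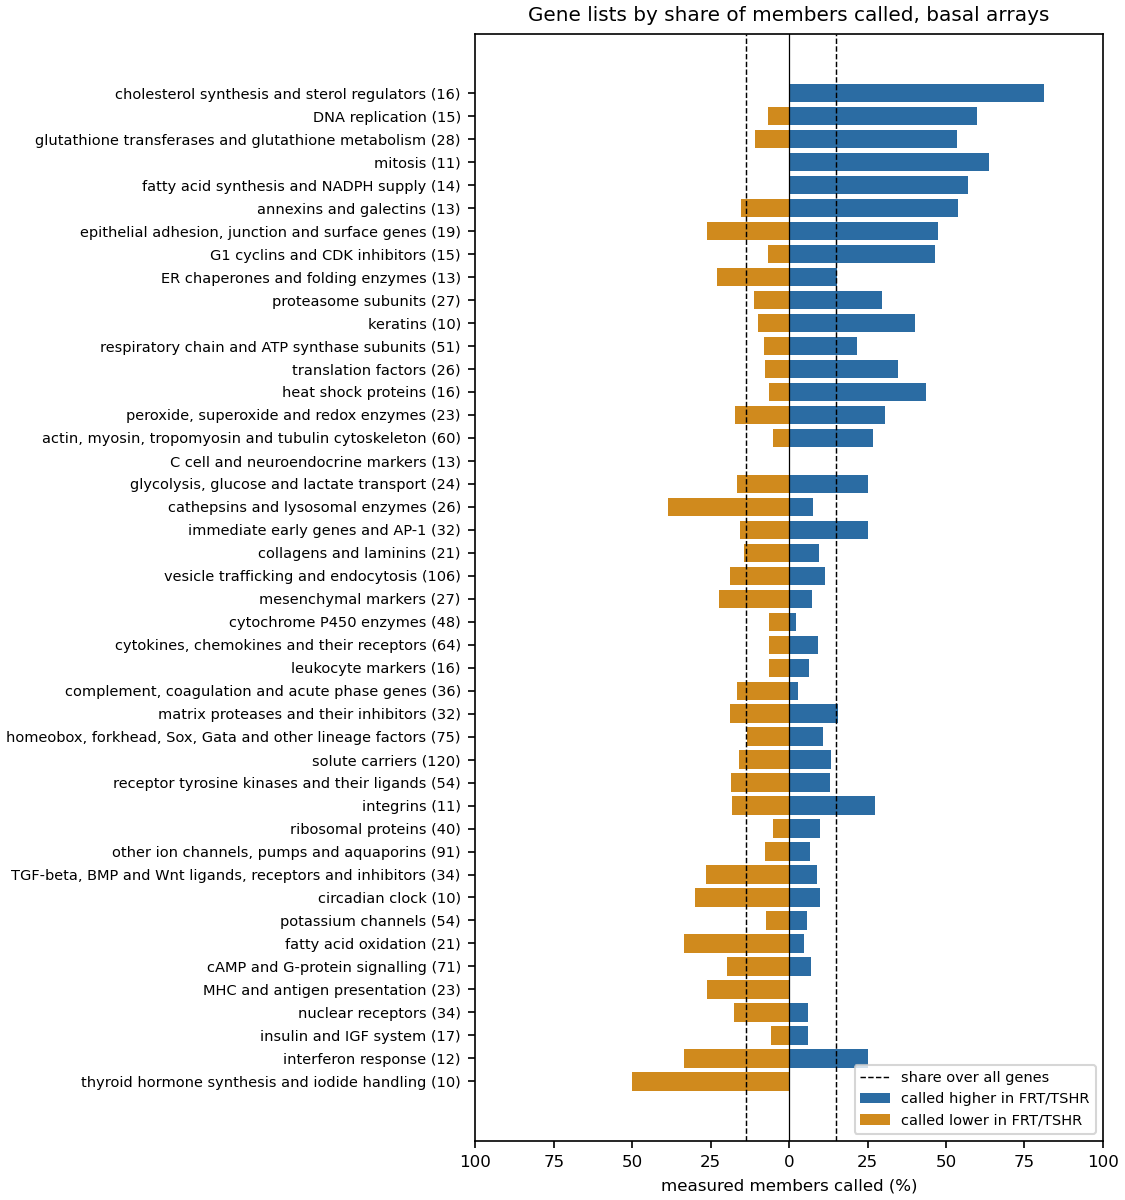
Share of the measured members of each gene list with at least 10 members (number in parentheses) called higher in FRT/TSHR (blue, to the right) or lower (orange, to the left) in the unstimulated arrays, in order of the list's median difference, with dashed lines at the shares over all 4736 genes (14.8% and 13.8%). Cholesterol synthesis has the longest blue bar (13 of 16) and thyroid hormone synthesis the longest orange bar (5 of 10).

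The line difference was then read in the stimulated arrays, whose levels do not enter the unstimulated differences, although they share the estimate of the spread; in a fit of the 6 unstimulated arrays alone 1990 probe sets were called. At 30 min and 17 h FRTL5 had received 0.1 U/L and FRT/TSHR 1 U/L of TSH, so that the dose differed with the line. FRTL5 arrays numbered 1 shared the raised actin ratio at these times, and the 3 time points are thus not wholly separate sets. At 30 min 1989 probe sets (22.8%) were called between the lines and at 17 h 1786 (20.4%; 2196 with the replicate number as a block). Of the 2226 unstimulated calls, 1710 (76.8%) were called the same way at 30 min and 2 the opposite way, and 1433 (64.4%) the same way at 17 h and 12 the opposite way. Of the 999 calls of at least 2-fold, 923 (92.4%) were called the same way at 30 min and 831 (83.2%) at 17 h. In all, 1291 probe sets were called the same way at all 3 times, 714 higher and 577 lower.

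Tspan8 differed by 7.89 without TSH, 7.56 at 30 min and 7.70 at 17 h, Epcam by 6.19, 6.33 and 6.28, and Tg by -7.04, -6.80 and -6.37. Krt8 and S100a4 differed by 5.56 and 6.07 at 17 h. These lay near their unstimulated values. The cholesterol list kept 13 higher calls of 16 at 30 min, with a median of 1.69, and had 7 higher and 2 lower at 17 h, with a median of 0.43. DNA replication had 6 higher and 1 lower of 15 at 30 min, and 1 higher and 6 lower at 17 h, with a median of -0.38. The glutathione list had 14 higher and 2 lower of 28 at both times.

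The change of the line difference itself, tested as an interaction, was called in 69 probe sets between the unstimulated and the 17 h arrays (0.789%; 27 upward, 0.309%, and 42 downward, 0.481%) and in 3 between the unstimulated and the 30 min arrays (0.0343%). The count of 69 was 22 with only the 12 arrays of these times. It was 148 with the replicate number as a block and 365 with that block within line. It was 33 to 42 without 1 of 7 arrays: unstimulated FRTL5 replicate 3 or FRT/TSHR replicate 1 or 3, or, at 17 h, FRTL5 replicate 2 or 3 or FRT/TSHR replicate 1 or 2. Fdps, for which the change was called, differed by 3.30 without TSH, 3.06 at 30 min and 1.04 at 17 h. Its mean went from 8.12 to 10.12 in FRTL5 and from 11.43 to 11.15 in FRT/TSHR. Slc5a5 had -1.20, -1.14 and -3.79, with a mean that went from 6.96 to 9.58 in FRTL5 and from 5.76 to 5.79 in FRT/TSHR.

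**Figure D5:**
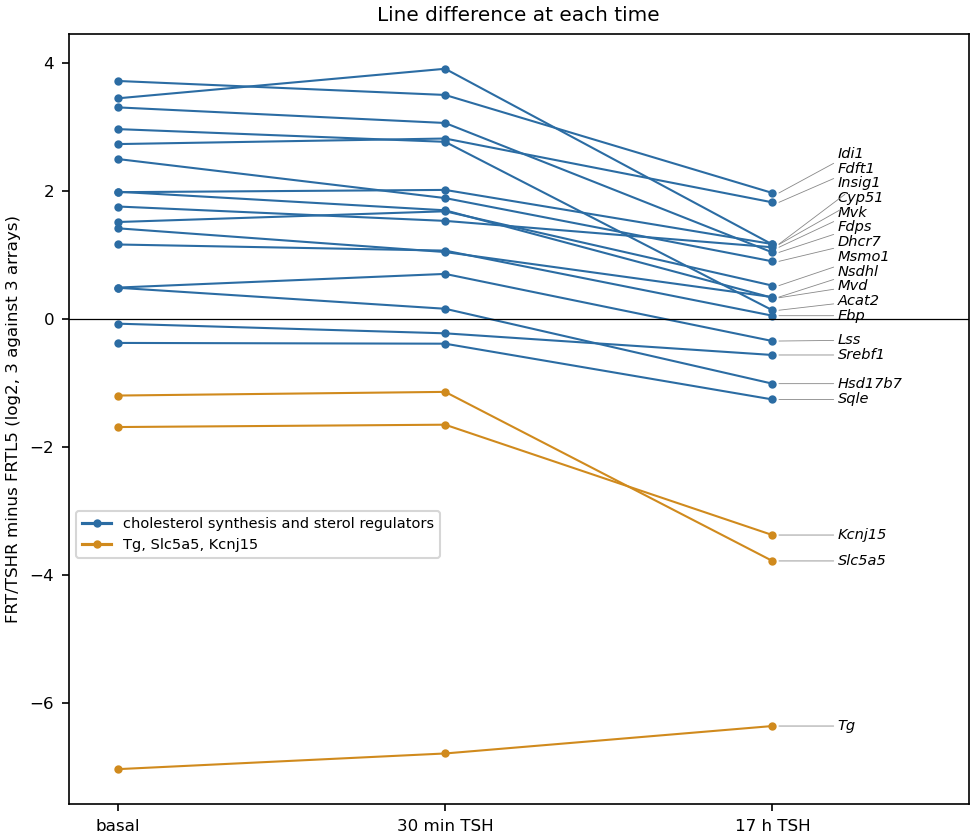
FRT/TSHR minus FRTL5 (log2, means of 3 against 3 arrays) without TSH, at 30 min and at 17 h for the 16 genes of cholesterol synthesis (blue) and for Tg, Slc5a5 and Kcnj15 (orange), with names at the right joined to the 17 h value. Most blue lines run level to 30 min and fall by 17 h, while Tg stays between -7.04 and -6.37 and Slc5a5 goes from -1.20 to -3.79.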

How the data were processed

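The table holds log2 expression values of 18 rat arrays as the authors deposited them; they were made with RMA, per the submitters' processing notes, whose version and settings are not given in the sources used here. Array values carry no read depth; 3 arrays a group limit the precision. Groups were taken from the sample titles. Of 8740 probe sets tested, 7006 had 1 gene symbol, 308 several and 1426 none; 6985 were matched by gene number to a RefSeq gene table of GRCr8, and no symbol changed. RMA normalises arrays to one distribution, so differences are relative to the bulk of probe sets.

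All 18 arrays entered 1 limma model (R 4.3.3, limma 3.58.1) with 6 group means, 12 residual degrees of freedom and no block; p-values are two-sided and adjusted over 8740 probe sets (Benjamini-Hochberg). On simulated data with 200 of 8740 probe sets changed, the script recovered 86% of changes of log2 size 1 and 98% of size 2, with 9 false calls. The simulation used independent normal noise and changed far fewer probe sets than were called here. It had no deviating array, so its rates need not hold for the real arrays. Same-numbered arrays of the 2 lines had deviations correlated at 0.35, 0.12 and -0.003 without TSH, 0.35, -0.12 and -0.08 at 30 min, and 0.32, 0.40 and 0.18 at 17 h. Differently numbered arrays had -0.29 to 0.25 without TSH, -0.33 to 0.45 at 30 min and -0.32 to 0.005 at 17 h. Some of these were as high, so the values do not settle whether the numbers are pairs between the lines. Within a line, arrays of the same number tended to lie together across times. On the second component of all 18 arrays, FRTL5 arrays numbered 1 stood at 20.5 to 23.9 and the other FRTL5 arrays at -14.0 to -6.6. FRT/TSHR arrays stood at 7.5 to 10.2 (number 1), -8.6 to -6.7 (number 2) and -3.8 to -0.99 (number 3). The main model has no block and leaves this out, also in the 17 h interaction test. Not every pair without TSH was above 0.1, so the numbers were not taken as pairs in the model; counts with the number as a block are given for 17 h, where every pair was.

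Genes named are the 15 largest called differences each way without overlap, up to 4 called members of each list in each direction by smallest p, and a fixed set of thyroid and marker genes; not every gene of this rule is printed. The members and lists were chosen with earlier results of these data known, so the counts of lists are descriptions and no test of a list was run. Alternatives changed the arrays in the fit, the normalisation, the filter on low values, the variance prior, the replicate block and the probe set that stands for a gene.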

Additional observations from a re-analysis of the deposited data

Results flagged for a closer look

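For 14 of the named genes the line difference at 17 h differed from that in the unstimulated arrays by the interaction test in limma (adjusted p under 0.05 over all 8740 probe sets; 3 against 3 arrays at each time, with a 10-fold higher TSH dose in FRT/TSHR). In all 14 the FRTL5 mean moved more between these times than the FRT/TSHR mean. FRT/TSHR minus FRTL5 went down in Slc5a5 by a change of -2.58 (adjusted p = 0.00030), in Cyp51 by -2.28, in Fdps by -2.27, in Cdk1 by -1.79, in Kcnj15 by -1.69, in Prim1 by -1.42, in Gpx2 by -1.35 and in Kcnk1 by -0.77. It went up in Ech1 by 1.38, in Cpq by 1.22, in Btg1 by 1.13, in Dbp by 0.97, in RT1-CE12 by 0.69 and in Spint2 by 0.69. For the genes other than Slc5a5 the adjusted p of the change lay between 0.0014 (Fdps) and 0.049 (Kcnk1 and RT1-CE12). Prim1 went from 1.18 to -0.24, Btg1 from -0.59 to 0.54 and Spint2 from -0.49 to 0.19, while the others kept their sign. Kcnj15 and Slc5a5 had the larger difference at 17 h. For none of the named genes was the change at 30 min called. In Slc5a5 the FRTL5 mean rose by 2.62 and the FRT/TSHR mean differed by 0.03; in Cyp51 these changes were 2.30 and 0.02, and in Ech1 -1.38 and 0.003. With only the 12 arrays of these times 7 of the 14 genes kept the call (Slc5a5, Fdps, Cpq, Kcnj15, Cyp51, Btg1 and Ech1). In every fit without 1 array 8 kept it, while Cdk1, Ech1, Gpx2, Kcnk1, Prim1 and RT1-CE12 lost it in 5 to 11 of 12 such fits. Without all FRTL5 arrays numbered 1, the call was lost in Cdk1, Dbp, Ech1, Kcnk1, Prim1, RT1-CE12 and Spint2 (limma, adjusted p = 0.050 to 0.11). All 14 kept it with the replicate block.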

How the results depend on the processing

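The number of probe sets called between the unstimulated lines, 2226, stayed between 1730 (low probe sets removed) and 2600 (replicate block), with 1877 to 2068 when 1 array was left out, and no shared call changed direction. The block kept 2223 of the 2226, and moved no count of calls between the lines at a single time by over 1.5 times; among the lists it moved lower calls from 1 to 3 in the insulin and IGF system and from 7 to 11 in other channels and pumps. The share of calls that were higher ran from 49.4% (second quantile normalisation) to 57.2% (low probe sets removed). The count for the change between 17 h and no TSH, 69, was less stable: 22 with only the 12 arrays of these times, 148 with the replicate block, 365 with a replicate block within line, and 33 to 83 with 1 array left out; the cause was not tested. Of the named genes, Cox4i1, a cytochrome oxidase subunit, turned from -0.39 to 0.019 and Kcna6, a potassium channel, from -0.30 to 0.0079 with the probe set of largest SD, and Tshr from 0.04 to -1.72 with the mean of its probe sets and to -3.96 with the probe set of largest SD, since the probe sets of these genes differ. Of 269 named genes called, 232 kept the call in all 6 fits without 1 unstimulated array and 37 lost it in at least 1. Signal over background could not be judged, since the table holds no background or detection values.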
